A study of Mus musculus with 2 samples.

Results

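The cells described here are the microglia with the highest joint expression of Spp1, Gpnmb and Lgals3 in the demyelinated corpus callosum. Barcodes with at least 2400 unique molecular identifiers (UMIs, each standing for 1 captured transcript), 300 or more genes and no more than 10% mitochondrial UMIs were taken as cells, which gave 4439 cells. Within each library the cells were ranked by the expression of each of the 3 genes, the 3 ranks were averaged, and the top 10% became the members. There were 444 members, 213 of 2131 cells in the medial library and 231 of 2308 cells in the lateral library. They are set against the lower 50% of the same ranking, 1065 medial and 1154 lateral cells, called low-ranked cells throughout.

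Both libraries came from C57Bl6 mice of genotype CX3CR1 on a cuprizone diet of 4 weeks. This copper-binding compound damages oligodendrocytes, and myelin is lost, most visibly in the corpus callosum, the white matter tract between the hemispheres. The medial and the lateral library hold microglia sorted from those parts of the tract, with 1 library per region and no untreated animals analysed here. The allele behind the genotype name, the sort gate and the number of mice are not stated in the labels. The tissue was dissociated and the cells sorted and loaded without culture.

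Microglia are the resident macrophages of the brain, and after myelin loss they take up myelin debris, digest it in lysosomes and export or store its cholesterol. Microglia in this setting lower genes of their resting state, such as the ADP receptor gene P2ry12, and raise a set of lipid and lysosomal genes often called disease-associated. Spp1 encodes osteopontin, a secreted phosphoprotein bound by integrins and CD44. Gpnmb encodes a transmembrane glycoprotein of phagocytes and pigment cells, and Lgals3 encodes galectin-3, a lectin that binds galactose-containing sugars and gathers at damaged lysosomes.

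The promoter stretches of a few genes that the results turn on are shown here, because they carry one of the 2 short motifs that were searched. These are the AP-1 site TGANTCA, the recognition sequence of Fos and Jun dimers, and the E-box CACGTG, read by basic helix-loop-helix factors such as the MiT/TFE family. Both were searched on both strands in 300 bases per transcription start, 250 before and 50 after it, from RefSeq on build GRCm38.p6, and neighbouring matches of the 2 motifs can share at most 2 letters. Gpnmb (chr6:49036268-49036567, plus strand) and Igf1 (chr10:87860861-87861160, plus strand) hold the AP-1 site in capitals. Siglech (chr7:55767934-55768233, plus strand) and P2ry12 (chr3:59262936-59263235, minus strand) hold the E-box in capitals.
Gpnmb: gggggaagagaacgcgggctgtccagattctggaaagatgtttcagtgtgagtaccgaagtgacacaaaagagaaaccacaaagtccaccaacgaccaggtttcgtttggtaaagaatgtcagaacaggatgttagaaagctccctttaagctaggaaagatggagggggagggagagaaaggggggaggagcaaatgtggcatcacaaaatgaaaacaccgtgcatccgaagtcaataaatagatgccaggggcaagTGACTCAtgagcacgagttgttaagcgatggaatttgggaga
Igf1: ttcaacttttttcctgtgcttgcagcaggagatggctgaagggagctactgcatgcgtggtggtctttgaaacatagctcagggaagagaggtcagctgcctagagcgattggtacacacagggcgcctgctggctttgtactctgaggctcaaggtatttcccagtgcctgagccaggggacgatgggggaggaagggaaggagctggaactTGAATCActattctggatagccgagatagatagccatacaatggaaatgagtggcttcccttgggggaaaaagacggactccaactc
Siglech: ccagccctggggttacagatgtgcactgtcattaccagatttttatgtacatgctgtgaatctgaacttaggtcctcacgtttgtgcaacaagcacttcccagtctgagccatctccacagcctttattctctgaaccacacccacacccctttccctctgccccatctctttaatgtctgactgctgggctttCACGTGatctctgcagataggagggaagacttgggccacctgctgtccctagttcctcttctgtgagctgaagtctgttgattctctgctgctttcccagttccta
P2ry12: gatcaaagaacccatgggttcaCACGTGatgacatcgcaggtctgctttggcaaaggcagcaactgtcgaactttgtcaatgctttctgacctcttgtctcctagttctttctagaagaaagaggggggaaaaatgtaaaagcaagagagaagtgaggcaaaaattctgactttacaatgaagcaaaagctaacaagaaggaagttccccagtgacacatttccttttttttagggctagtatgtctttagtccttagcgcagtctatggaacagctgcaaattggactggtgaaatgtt
The first base of the capitals lies at position 9 after the start in Gpnmb, and at positions -37 in Igf1, -56 in Siglech and -228 in P2ry12. Neither motif was found in the windows of Spp1, Lgals3, Cd5l, Vim, Crybb1 or Slc2a5, whereas 1 of the 2 starts of Ms4a7 had an AP-1 site at -81. TGANTCA was present in 8.68% of the 242 windows of genes higher in members, 5.16% of the 465 windows of genes lower in members and 4.86% of the 7369 windows of all genes compared. CACGTG was present in 10.3%, 12.04% and 10.9% of the same windows. Over all 32851 windows searched, compared genes or not, TGANTCA was present in 7.81% and CACGTG in 7.15%. Counted by gene, TGANTCA was present in 19 of 193 higher genes (9.85%), 24 of 365 lower genes (6.58%) and 338 of 5738 genes compared (5.89%). A match describes these letters and nothing about which factor is bound there.

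The 3 genes that chose the members are given as a description. Spp1 made up 15391 counts per 1000000 UMIs (CPM) in medial members and 1102 in medial low-ranked cells, and 18792 in lateral members and 1133 in lateral low-ranked cells. Gpnmb stood at 1968 CPM in medial members and 164 in medial low-ranked cells, and at 1694 in lateral members and 87.2 in lateral low-ranked cells. Lgals3 stood at 892 CPM in medial members and 108 in medial low-ranked cells, and at 857 in lateral members and 119 in lateral low-ranked cells. Spp1 was thus the most abundant of the 3 in both libraries. On GRCm38, Spp1 lies at chr5:104435118-104441050, Gpnmb at chr6:49036546-49070929 and Lgals3 at chr14:47367751-47386160, all on the plus strand and all protein coding.

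Free RNA in the droplets carries these transcripts too. Barcodes with fewer than 100 UMIs, taken here to hold no cell, had 5039 CPM of Spp1, 490 CPM of Gpnmb and 335 CPM of Lgals3 in the medial library, and 6183, 348 and 350 CPM of the same genes in the lateral library. These values lie above the low-ranked cells and below the members for each gene in each library. A UMI of Gpnmb was found in 100% of members of both libraries, against 61.1% of medial and 39.9% of lateral low-ranked cells, and a UMI of Lgals3 in 100% of members against 51.1% and 50.1% of low-ranked cells.

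Members were not uniform. Spp1 ranged from 1199 to 128353 CPM over medial members, with a median of 9509, and from 1142 to 124759 CPM over lateral members, with a median of 10541. Of the medial members, 15 were in the top 10% of all 3 genes, 85 in that of 2 genes, 87 in that of 1 gene and 26 in that of none. Lateral members numbered 26, 73, 101 and 31 in the same classes. A high mean rank therefore joined cells led by different genes.

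The cells next to the cut are given as a description. The 20 medial members just inside it had mean ranks of 78.7% to 80.1% of the library and averaged 6297 CPM of Spp1, 1581 of Gpnmb and 410 of Lgals3, and the 20 cells just outside had ranks of 77.7% to 78.7% and averaged 11818, 1142 and 606 CPM. In the lateral library the 20 cells just inside averaged 10060, 1121 and 504 CPM and the 20 just outside 11534, 980 and 529 CPM.

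The 3 genes also moved with each other. When cells were ranked by Gpnmb and Lgals3 only, Spp1 was 4.83 times as high in the top 10% as in the lower 50% of the medial library and 5.14 times as high in the lateral library. Gpnmb was 4.20 and 5.07 times as high when Spp1 and Lgals3 were used, and Lgals3 was 3.13 and 2.57 times as high when Spp1 and Gpnmb were used.

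Members carried more RNA than low-ranked cells. Their median was 12088 UMIs and 2943 genes in the medial library, against 10027 UMIs and 2679 genes in low-ranked cells, and 11374 UMIs and 2886 genes in the lateral library, against 8909 UMIs and 2565 genes. Mitochondrial UMIs had a median of 1.99% in medial members and 2.31% in medial low-ranked cells, and of 2.10% in lateral members and 2.65% in lateral low-ranked cells. Only 7 barcodes occurred as cells in both libraries, none of them a member of both.

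The label microglia was checked against markers of 14 cell classes. All 12 microglial markers were detected in members, with a summed level of 10384 CPM in medial members and 12098 in medial low-ranked cells, and 11454 in lateral members and 12472 in lateral low-ranked cells. Of 8 border macrophage markers 3 were detected in members, and Mrc1, Cd163, Lyve1, Cbr2 and F13a1 were at 0 in the members of both libraries. The border macrophage sum was 119 CPM in medial members and 58.6 in medial low-ranked cells, and 104 in lateral members and 45.4 in lateral low-ranked cells, with 80.0 and 65.9 CPM in free RNA. Among the 3 detected, Ms4a7 and the chemokine gene Pf4 were higher in members and the folate receptor gene Folr2 was lower, at 22.05 CPM in medial members against 29.5, and 20.4 in lateral members against 27.5.

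Markers of other classes were low, and their part in the results was not tested except where stated. Monocyte markers summed to 1.93 CPM in medial members against 2.37 in medial low-ranked cells, and to 1.507 in lateral members against 1.4999 in lateral low-ranked cells. Of the 5 endothelial markers only Flt1 and Pecam1 were detected in members, where Cdh5, Cldn5 and Ly6c1 were at 0, and the sum of the 5 was 159 CPM in medial members against 102, and 122 in lateral members against 84.3. Flt1, a receptor for vascular growth factors, stood at 74.7 CPM in medial members against 29.6, and 71.2 in lateral members against 34.6. The astrocyte sum, mostly the glutamate transporter gene Slc1a3, was 19.0 CPM in medial members against 55.8, and 33.9 in lateral members against 53.2.

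Genes other than the 3 were compared by summing UMIs over members and over low-ranked cells of each library and scaling to CPM of all genes except the 3. This scale is used from here on and was used for the marker classes above. Free RNA levels are throughout CPM of all genes, the 3 included. A gene was called higher or lower when the ratio was at least 5/4 in that direction and its exact conditional binomial 95% interval lay past 1, in both libraries. Of 7364 genes with at least 100 UMIs in each library, 250 were higher in members (3.39%) and 490 lower (6.65%). The median gene had a log2 ratio of -0.07 in medial and -0.10 in lateral cells, and after centring on that gene 373 were higher and 296 lower. Where 2 log2 ratios are given for a gene or list, the medial library comes before the lateral, and a level after "against" is that of the low-ranked cells of the same library. These calls are a description, since the cells were chosen from the same data and each region has 1 library. The intervals cover counting error only and leave out the spread between cells and mice.

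Among the called genes, 44 were at least 2-fold higher and 45 at least 2-fold lower in both libraries.

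**Figure D1:**
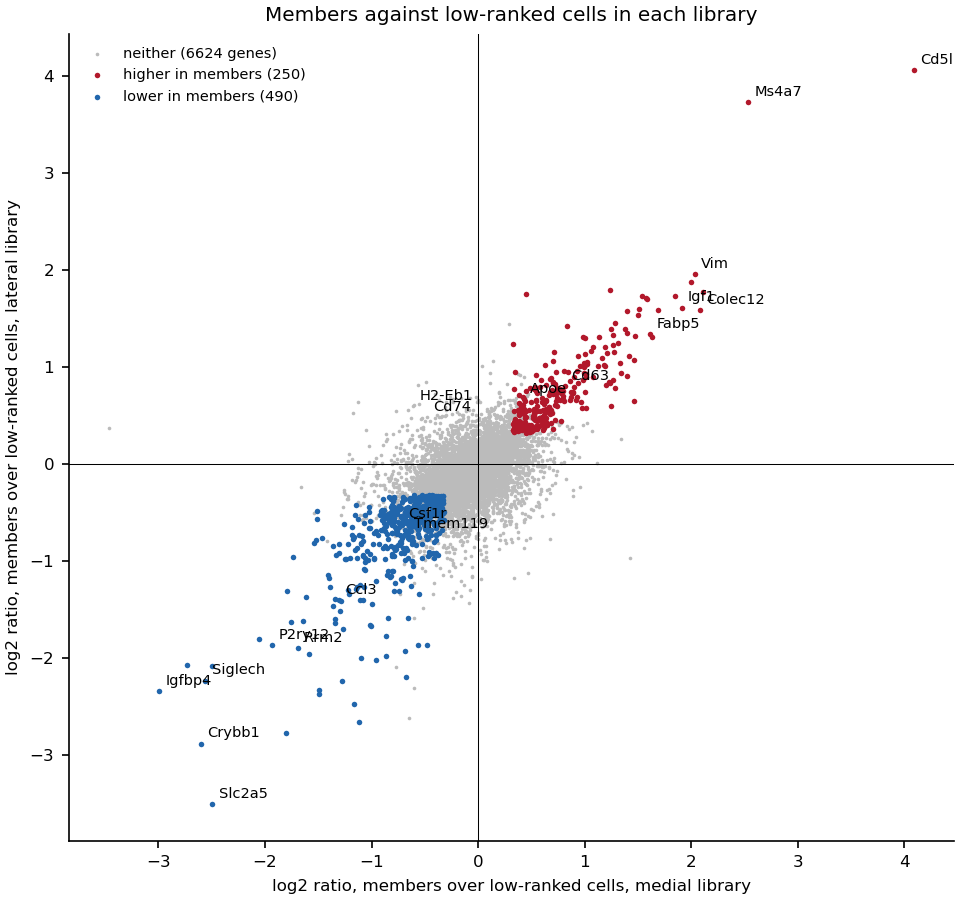
Each point is 1 of the 7364 genes compared; the axes give the log2 ratio of members over low-ranked cells in the medial (x) and lateral (y) library. Red points are the 250 genes higher and blue points the 490 genes lower in both libraries; Cd5l and Ms4a7 stand apart at the upper right, and Slc2a5 and Crybb1 at the lower left.

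Cd5l, which encodes a secreted macrophage protein of the scavenger receptor cysteine-rich family, had the largest ratio of the genes called higher in both libraries. The gene lies at chr3:87357881-87371073 on the plus strand of GRCm38. It stood at 55.7 CPM in medial members and 3.28 in medial low-ranked cells (log2 ratio 4.09, interval 3.55 to 4.66), and at 76.5 CPM in lateral members and 4.59 in lateral low-ranked cells (4.06, interval 3.602 to 4.54). It was carried by few cells. A Cd5l UMI was found in 42 of 213 medial and 51 of 231 lateral members, against 32 of 1065 and 43 of 1154 low-ranked cells, and the 10 members with most Cd5l held 66.0% of its medial and 65.0% of its lateral UMIs. Ms4a7, a membrane protein of the MS4A family, stood at 53.4 CPM in medial members against 9.20 (log2 ratio 2.54) and at 54.6 in lateral members against 4.12 (3.73), and was seen in 37.6% of medial and 32.5% of lateral members, against 6.67% and 3.38% of low-ranked cells. At equal depth, with each cell thinned to 2400 UMIs, Cd5l was seen in 7.51% of medial and 11.7% of lateral members, against 0.563% and 0.867% of low-ranked cells. Its level in free RNA was 12.8 CPM in the medial and 19.2 CPM in the lateral barcodes.

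Ms4a7 is also a marker of border macrophages, whose other markers are described above. Cells with at least 2 UMIs of that marker list made up 33.3% of medial and 30.3% of lateral members, against 12.6% and 8.15% of low-ranked cells. At equal depth they were 6.57% of medial members against 1.13%, and 4.76% of lateral members against 1.56%. Without those cells the mean log2 ratio over the libraries was 3.71 for Cd5l, against 4.07 with them, and 1.92 for Vim, against 1.99; too few Cd5l UMIs then remained for a call. Ms4a7, which was used to leave cells out, had 2.29 against 3.13.

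Vim, which encodes the intermediate filament vimentin, was spread more widely over members. It stood at 173 CPM in medial members and 42.4 in medial low-ranked cells, and at 181 in lateral members and 46.6 in lateral low-ranked cells, and 69.0% of medial and 66.7% of lateral members held a UMI, against 30.1% and 25.6% of low-ranked cells. Thinned to equal depth, 31.0% of medial members held one against 8.92%, and 31.6% of lateral members against 9.62%. Free RNA of these libraries contained Vim at 78.8 (medial) and 87.1 CPM (lateral). Igf1, the growth factor that acts on oligodendrocyte precursors, had a UMI in 99.1% of medial and 98.7% of lateral members, against 76.1% and 79.5% of low-ranked cells. At equal depth these shares were 89.7% of medial members against 40.7%, and 85.7% of lateral members against 47.6%. Free RNA held 365 and 460 CPM of Igf1, more than the low-ranked cells and less than the members. Igf1 stood at 926 CPM in medial members against 246 (log2 ratio 1.91, interval 1.83 to 1.99) and at 985 in lateral members against 322 (1.61, interval 1.54 to 1.69). The remaining genes of the 15 named as most different were Serpinb6a, a protease inhibitor, the scavenger receptors Msr1 and Colec12, the apolipoprotein gene Apoc4, the fatty acid carrier gene Fabp5, Wfdc17, Ms4a6c, Nlrc3, Lrrc27, the G protein regulator gene Rgs1 and Vat1. Rgs1 stood at 378 CPM in medial members against 159, and at 389 in lateral members against 149.

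Vim and Igf1 climbed along the ranking rather than at its end, as the decile plots show. Vim had 31.1 CPM in decile 1, 56.0 in decile 5 and 173 in decile 10 of the medial library, and 35.1, 62.2 and 182 CPM in the lateral library. Igf1 had 161, 346 and 927 CPM in the same medial deciles and 233, 419 and 986 in the lateral ones. Cd5l stayed between 0.451 and 14.3 CPM in medial deciles 1 to 9 and stood at 55.7 in decile 10, whereas in the lateral library it was already 46.6 CPM in decile 7.

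**Figure D2:**
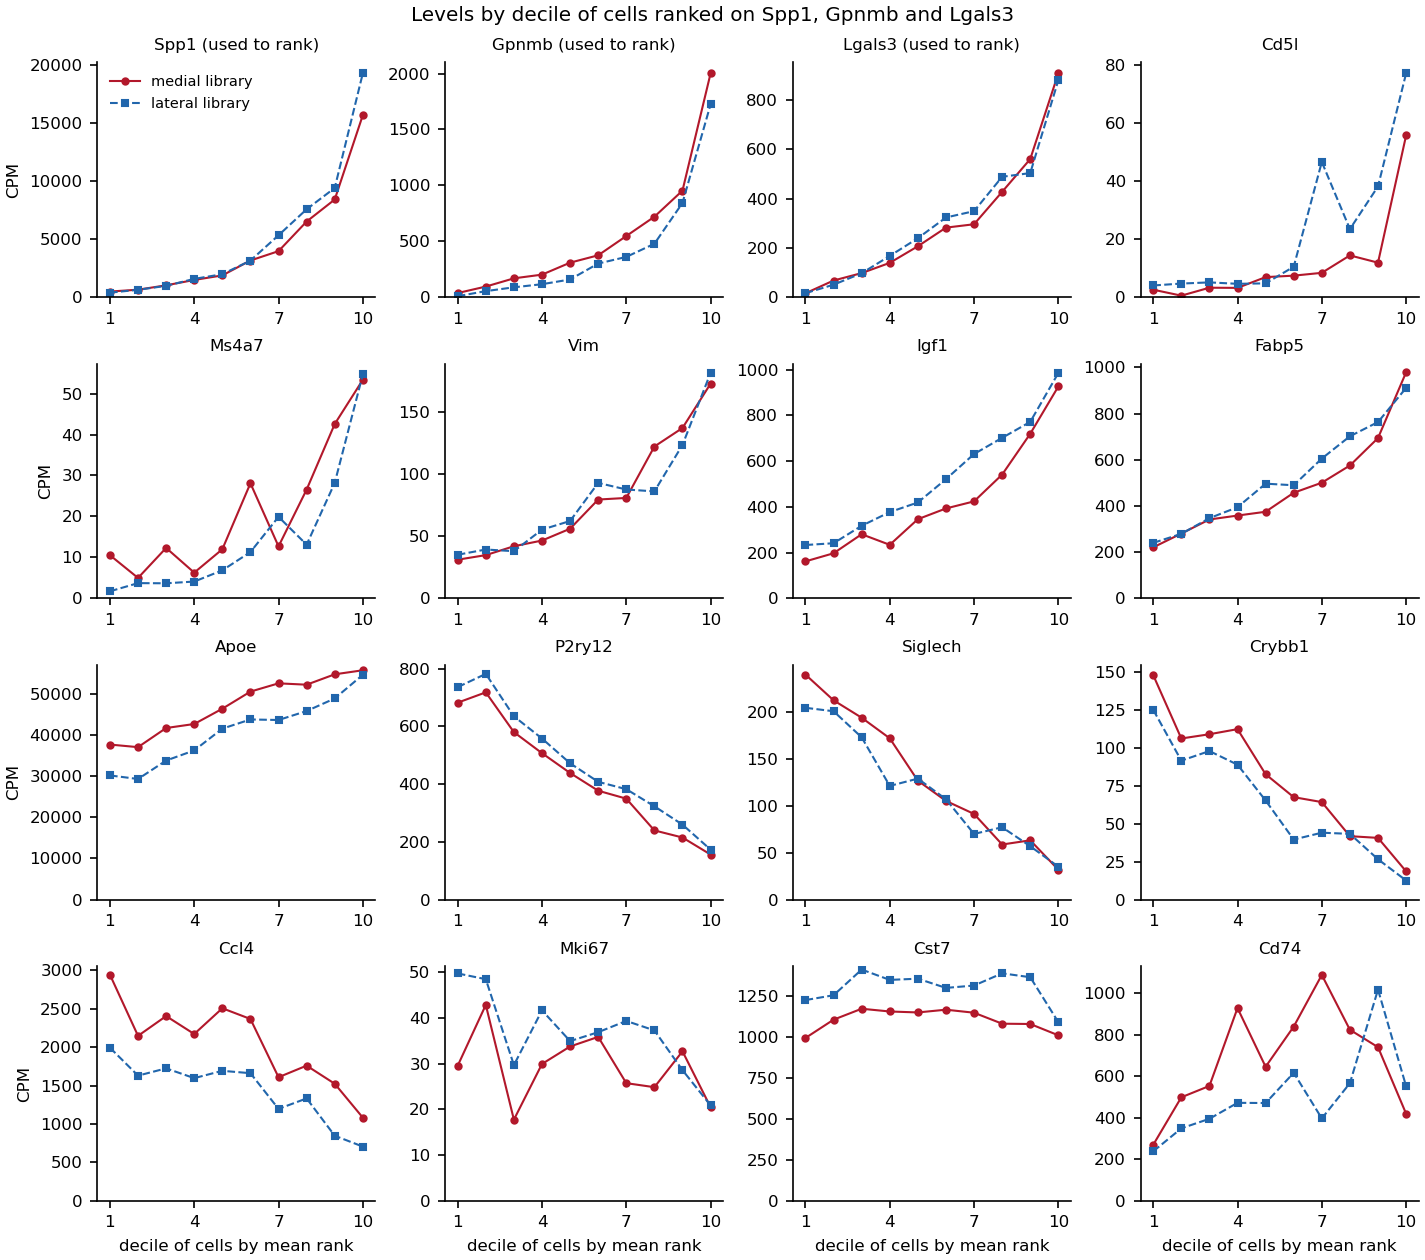
CPM (y, linear axis from 0) of 16 genes in cells grouped into 10 deciles of the mean rank (x, low to high), medial library as red circles and lateral as blue squares. The first 3 panels are the genes used to rank; Vim, Igf1, Fabp5 and Apoe climb and P2ry12, Siglech, Crybb1 and Ccl4 decline along the ranking, Cst7 stays between 994 and 1411 CPM, and Cd74 is highest at medial decile 7 and lateral decile 9.

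Many lipid handling genes were higher in members. Of 28 lipid uptake, storage and efflux genes measured, 14 were higher, 1 was lower and 13 were in neither class, with a median log2 ratio of 0.38 (medial) and 0.34 (lateral). The higher ones were Apoc1, Apoc4, Apoe, Fabp3, Fabp5, Hilpda, Lipa, Lpl, Msr1, Nceh1, Olr1, Plin2, Plin3 and Soat1, and Lpcat2, an acyltransferase gene for phospholipids, was lower. Apoe, the main lipid carrier of the brain, stood at 55612 CPM in medial members against 41226, and at 54796 in lateral members against 34433. Plin2, which coats lipid droplets, stood at 624 CPM in medial members against 358, and at 571 in lateral members against 340. The cholesterol ester pair Soat1 and Nceh1, which make and hydrolyse the stored esters, were both higher, with log2 ratios of 0.53 and 0.59 in the medial and 0.53 and 0.86 in the lateral library.

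Fabp5 stood at 973 CPM in medial members against 317, and at 908 in lateral members against 358. Lpl, the lipoprotein lipase gene, stood at 917 CPM in medial members against 602, and at 985 in lateral members against 776, so the 2 libraries differed in size but not direction. The cholesterol exporters Abca1 and Abcg1 were in neither class, with medial log2 ratios of 0.175 and 0.21 and lateral ones of 0.19 and 0.01. Synthesis genes were not among the higher ones. Of 14 cholesterol and fatty acid synthesis genes none was higher and 3 were lower, Acly, Insig1 and Scd2, with a list median of -0.39 (medial) and -0.34 (lateral).

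Of 37 lysosomal genes 13 were higher and none lower, with a median log2 ratio of 0.28 in both libraries. They included the proteases Ctsa, Ctsb, Ctsd and Tpp1, the lipid and glycolipid hydrolases Lipa and Gla, the membrane proteins Cd63, Cd68, Lamp1 and Scarb2, the lysozyme gene Lyz2 and the progranulin gene Grn. Ctsb, a cysteine protease, stood at 12400 CPM in medial members against 8198, and at 14427 in lateral members against 9293. Ctsd, an aspartic protease, stood at 34336 CPM in medial members against 27232, and at 33469 in lateral members against 26479, and 32.1% of the 57-base windows of its transcripts also occur in other genes. Gla, which encodes alpha-galactosidase A, had the largest ratio of the list in both libraries, with log2 ratios of 1.19 and 1.01.

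Gpnmb is a target of the MiT/TFE factors, which switch on lysosome genes. Of 26 measured factors and lysosomal targets, 6 were higher (Atp6ap1, Cd63, Ctsd, Fnip2, Gla and Lamp1) and 1 was lower (Nupr1). The factors Mitf, Tfeb and Tfe3 were in neither class. Mitf had log2 ratios of -0.13 and -0.13, Tfeb of 0.13 and 0.11, and Tfe3 of -0.29 and -0.10 in the medial and lateral library. Tfec, another of these factors, had a UMI in 1 of 213 medial and 5 of 231 lateral members and was not compared. Atp6v0d2, a proton pump subunit, did not reach the UMI minimum. It stood at 21.7 CPM in medial members and 1.64 in medial low-ranked cells, and at 7.54 in lateral members and 0.844 in lateral low-ranked cells, with a UMI in 25 of 213 medial and 10 of 231 lateral members.

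The disease-associated list overlaps the lipid and lysosomal lists, and it did not move as a block. Of 31 genes measured, 15 were higher (Apoe, Cadm1, Cd63, Cd68, Cd9, Ctsb, Ctsd, Fabp5, Fth1, Gas7, Igf1, Lilrb4a, Lpl, Lyz2 and Timp2), 3 were lower (Ccl3, Ccl4 and Ccl6) and 13 were in neither class. Several of the names best known from this list were among the 13. Cst7, a cystatin gene, stood at 1012 CPM in medial members against 1119, and at 1087 in lateral members against 1323. The lipid receptor gene Trem2 stood at 3004 CPM in medial members against 2556, and at 3022 in lateral members against 2618. Its adaptor gene Tyrobp had log2 ratios of 0.26 and 0.20 and the phagocytic receptor gene Axl of 0.42 and 0.30, below the call in at least 1 library. Itgax stood at 46.8 CPM in medial members against 23.6, and at 21.5 in lateral members against 16.3, where its interval included equal levels.

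Genes of the partners of the 3 marker proteins were mostly in neither class. Of 6 osteopontin receptor genes, Cd44 was higher, at 29.4 CPM in medial members against 19.0 and 36.2 in lateral members against 17.8. The integrin subunit gene Itgb3 was lower, at 6.58 CPM in medial members against 14.5 and 7.91 in lateral members against 15.5. Itgav, Itgb1 and Itgb5 had log2 ratios from -0.12 to 0.22. Of 4 other galectin genes and galectin binding protein genes, 1 was higher, Lgals1, at 602 CPM in medial members against 226 and 525 in lateral members against 244, whereas Lgals8, Lgals9 and Lgals3bp were in neither class.

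The matrix, annexin and S100 list had the largest positive median, 0.61 (medial) and 0.51 (lateral), with 9 of 16 genes higher and none lower. They were Anxa2, Anxa4, Anxa5, Cd44, Crip1, Emp3, Timp2, Tmsb10 and Vim. Anxa5, which binds phosphatidylserine on membranes, stood at 438 CPM in medial members against 218, and at 487 in lateral members against 240. Anxa3 was in neither class, with log2 ratios of -0.15 in both libraries. Within the actin cytoskeleton list 5 of 26 genes were higher (Capg, Ezr, Gsn, Lsp1 and Tmsb10) and 2 were lower (Fscn1 and Marcks). Fscn1, which bundles actin, stood at 86.7 CPM in medial members against 187, and at 72.7 in lateral members against 193.

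Iron storage transcripts were higher. Ftl1, the ferritin light chain gene, stood at 14566 CPM in medial members against 9164, and at 15905 in lateral members against 10612, although 48.4% of the 57-base windows of its transcripts also occur in other genes. Fth1, the ferritin heavy chain gene, had log2 ratios of 0.36 in both libraries, and the haem oxygenase gene Hmox1 of 0.52 and 0.54. Of 26 iron, antioxidant and Nrf2 genes 5 were higher (Blvra, Fth1, Ftl1, Hmox1 and Prdx1), while the Nrf2 targets Slc7a11 and Txnrd1 were lower. Among 14 copper and zinc genes, of interest because cuprizone binds copper, Mt2 was higher and the zinc importer gene Slc39a14 was lower, and Mt1 was in neither class at log2 ratios of 0.09 and 0.15.

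Energy genes of the lists differed little, while the median share of mitochondrial UMIs, given above, was lower in members. None of 24 oxidative phosphorylation genes was called in either direction, with list medians of 0.00 and -0.02. Of 23 glycolysis and hypoxia genes, Hilpda and Pgam1 were higher and the hexokinase gene Hk2 was lower, and 35.8% of the windows of Pgam1 are shared with other genes. Hilpda, which slows lipid droplet breakdown, stood at 111 CPM in medial members against 68.2, and at 128 in lateral members against 72.1.

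**Figure D3:**
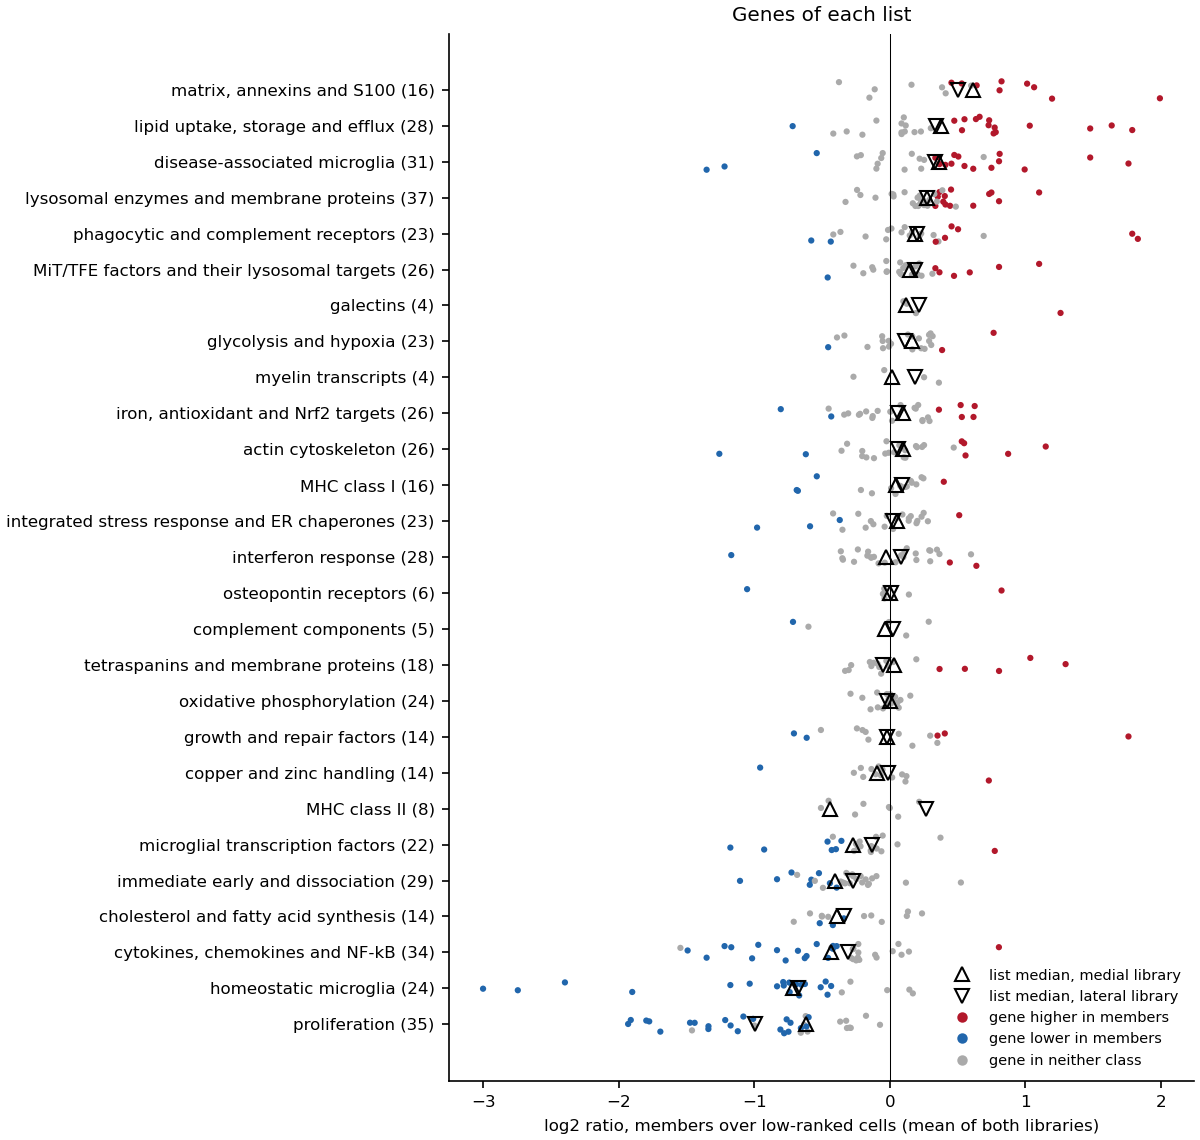
Each row is a gene list with its number of measured genes; points are genes at the mean of the 2 libraries' log2 ratios of members over low-ranked cells (x), red for higher, blue for lower and grey for neither, and triangles are list medians per library. Medians run from -0.71 for homeostatic genes (medial) and -0.99 for proliferation (lateral) to 0.61 and 0.51 for matrix genes, and the class II list is the one where the 2 libraries lie on opposite sides of 0 by more than 0.2.

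Homeostatic genes were lower in members. Of 24 measured, 19 were lower, none was higher and 5 were in neither class, with median log2 ratios of -0.71 (medial) and -0.68 (lateral). P2ry12, at chr3:59216272-59262871 on the minus strand, stood at 152 CPM in medial members and 581 in medial low-ranked cells (log2 ratio -1.93, interval -2.08 to -1.78), and at 172 in lateral members and 630 in lateral low-ranked cells (-1.87, interval -2.01 to -1.73). Free RNA held 418 and 472 CPM of P2ry12, more than the members and less than the low-ranked cells, and what free RNA adds to the members' P2ry12 was not tested. The fructose transporter gene Slc2a5 stood at 8.90 CPM in medial members against 50.1, and at 5.28 in lateral members against 60.1. Siglech, a sialic acid binding receptor of microglia, stood at 31.7 CPM in medial members against 187, and at 34.7 in lateral members against 163. Crybb1, a crystallin gene expressed in microglia, stood at 18.2 CPM in medial members against 111, and at 12.4 in lateral members against 92.0.

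Other homeostatic genes were lower by less. Tmem119, a microglial membrane protein gene, had log2 ratios of -0.66 and -0.72, the growth factor receptor gene Csf1r of -0.71 and -0.63 and the fractalkine receptor gene Cx3cr1 of -0.41 and -0.46. Sall1, a transcription factor of microglial identity, was lower by more in the medial library, with log2 ratios of -1.54 and -0.82, and it was one of 6 microglial transcription factor genes called lower with Cebpb, Mef2c, Runx1, Smad7 and Spi1. Bhlhe40 was the 1 factor called higher, with log2 ratios of 0.73 and 0.82. Fcrls was in neither class, with log2 ratios of 0.05 and 0.24. The decline was gradual: P2ry12 had 682, 438 and 156 CPM in deciles 1, 5 and 10 of the medial library and 736, 472 and 173 CPM in those of the lateral library.

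Outside the lists, Igfbp4, Thrsp, BC035044, Naaa, Cryba4, Ptgs1 and Nav3 were among the 15 genes named as most different on the lower side. Ptgs1, the cyclooxygenase-1 gene, stood at 87.0 CPM in medial members against 231, and at 109 in lateral members against 241. Naaa, which hydrolyses fatty acid amides, stood at 7.74 CPM in medial members against 32.1, and at 9.04 in lateral members against 31.6.

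Chemokine genes were lower as well. Of 34 cytokine, chemokine and NF-kB genes 16 were lower and 1 was higher, with median log2 ratios of -0.43 and -0.31. Ccl3, which encodes a chemokine that attracts leukocytes, stood at 563 CPM in medial members against 1389, and at 373 in lateral members against 985. Ccl4 stood at 1095 CPM in medial members against 2428, and at 702 in lateral members against 1718. A Ccl4 UMI was found in 92.0% of medial and 84.4% of lateral members, against 95.8% and 85.7% of low-ranked cells. At equal depth, with each cell thinned to 2400 UMIs, the shares were 61.0% of medial members against 77.2%, and 46.8% of lateral members against 63.5%. Free RNA held 2562 and 1831 CPM of Ccl4, above members and low-ranked cells of the same library.

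Ccl2, Ccl5, Ccl6, Ccl9, Ccl12, Cxcl10, Cd83, Gpr84, Icam1, Il1a and 4 genes of the NF-kB family or its regulators (Nfkb1, Nfkbiz, Rel and Relb) were also lower. Tnf and Il1b were in neither class, at log2 ratios of -0.73 and -0.48 in the medial and -0.14 and -0.09 in the lateral library. Il12b, named after its values were seen, stood at 4.64 CPM in medial members against 51.2, and at 32.4 in lateral members against 25.03, opposite in direction. Cxcl14 was the 1 gene called higher, at 171 CPM in medial members against 87.5 and 165 in lateral members against 105. Immediate early genes, a class that dissociation of tissue can switch on, were lower too: 8 of 29 were lower (Btg2, Dusp2, Egr2, Ier3, Jun, Jund, Nfkbiz and Rhob) and none was higher, with medians of -0.40 and -0.27. The part of dissociation in the chemokine values was not tested.

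**Figure D4:**
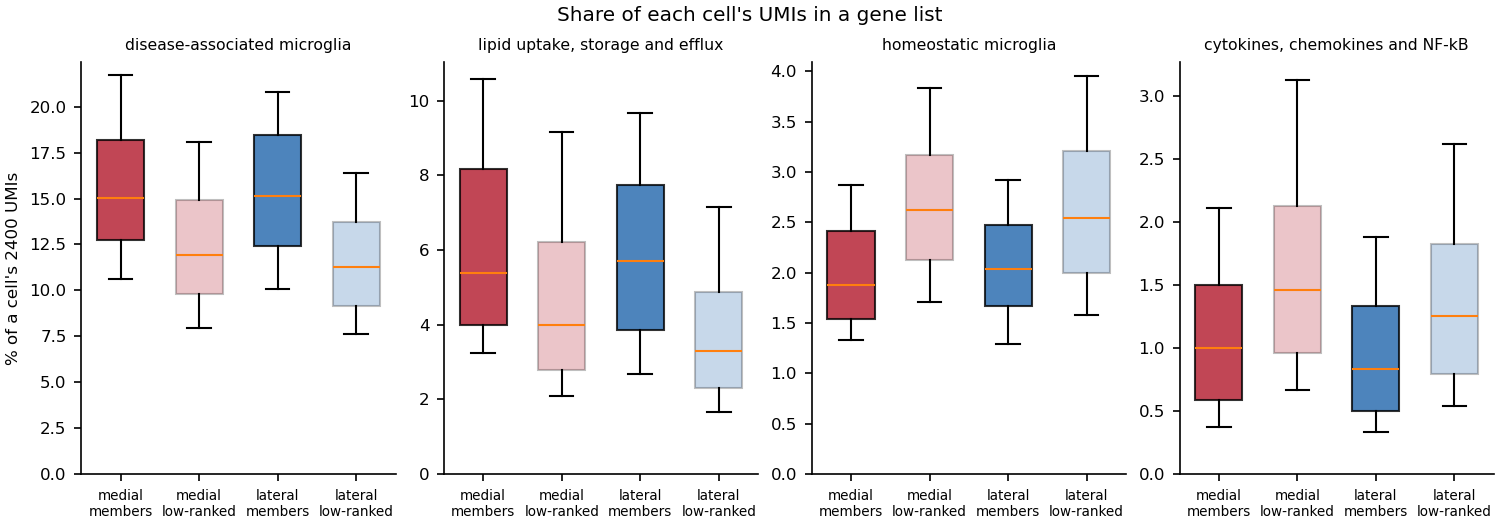
Share of a cell's UMIs (y, %, linear axis from 0) in 4 gene lists after each cell was thinned to 2400 UMIs, for members (solid) and low-ranked cells (pale) of the medial (red) and lateral (blue) library. Boxes span the 25th to 75th percentile of cells with the median as a line, and whiskers the 10th to 90th; medians of the disease-associated list are 15.04% in medial members against 11.9%, and 15.1% in lateral members against 11.3%, and the groups overlap in every panel.

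At equal depth, with every cell thinned to 2400 UMIs and no cell left out, the same lists differed per cell. Homeostatic transcripts had a median of 1.88% of UMIs in medial members against 2.62%, and 2.04% in lateral members against 2.54%. Lipid transcripts had a median of 5.38% in medial members against 4.00%, and 5.71% in lateral members against 3.29%. Apoe alone made up most of this list. It gave 55612 of the 62908 CPM summed over the list in medial members, against 41226 of 46600. In lateral members it gave 54796 of 62184 CPM, against 34433 of 39884. The lipid share therefore mostly follows 1 transcript, which is in the disease-associated list too. Cytokine transcripts had a median of 1% in medial members against 1.46%, with the same order in lateral cells. The cells of the groups overlapped widely for each list, as the box plots of these shares show.

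Proliferation genes were lower in members. Of 35 measured, 22 were lower and none was higher, with median log2 ratios of -0.62 (medial) and -0.99 (lateral). Rrm2, which encodes a subunit of ribonucleotide reductase, stood at 10.8 CPM in medial members against 35.0, and at 12.1 in lateral members against 45.1. Mki67, a marker of cycling cells, stood at 21.3 CPM in medial members against 30.7, and at 20.7 in lateral members against 40.5. Cycling cells were counted as those with at least 3 UMIs from at least 2 of 22 core cycling genes at equal depth. They were 6.57% of medial members (14 of 213, Clopper-Pearson 95% interval 3.64% to 10.8%) against 11.3% of medial low-ranked cells (120 of 1065, 9.43% to 13.3%), and 4.33% of lateral members (10 of 231, 2.10% to 7.82%) against 15.9% of lateral low-ranked cells (184 of 1154, 13.9% to 18.2%). Without thinning the shares were 23.5% of medial members against 24.1%, and 20.3% of lateral members against 26.7%.

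Phagocytic receptors were mixed. Of 23, 6 were higher (C3ar1, Cd300lf, Colec12, Fcer1g, Msr1 and Stab1) and 2 were lower, the complement receptor subunit gene Itgam and the apoptotic cell receptor gene Mertk. Msr1, which takes up modified lipoproteins, stood at 62.3 CPM in medial members against 17.3, and at 67.8 in lateral members against 20.4. The complement genes C1qa, C1qb and C1qc were in neither class. Of 18 tetraspanin and membrane protein genes 5 were higher, Cd200r4, Cd22, Cd63, Cd72 and Cd9. Growth and repair genes split, with Grn, Igf1 and Vegfb higher and Il1rn and Pdgfb lower among 14.

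Further lists held few called genes. Of 28 interferon response genes, Ifi204 and Oasl2 were higher and Cxcl10 was lower. Of 16 class I antigen presentation genes, H2-T23 was higher and H2-Q4, H2-Q6 and H2-Q7 were lower. The H2-Q genes are paralogues, and 27.1% of the windows of H2-Q6 and 23.4% of those of H2-Q7 are shared with other genes. Of 23 stress response genes, the chaperone gene Pdia6 was higher and Atf4, Herpud1 and Slc7a5 were lower. None of the 4 myelin transcripts measured was called, and Mbp stood at 13.9 CPM in medial members against 10.1, and at 15.1 in lateral members against 12.6.

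Class II antigen presentation genes gave opposite values in the 2 libraries. Of 8 measured none was called, with a median log2 ratio of -0.44 (medial) and 0.27 (lateral). Cd74, the invariant chain gene, stood at 420 CPM in medial members against 587, and at 547 in lateral members against 392. H2-Aa stood at 88.2 CPM in medial members against 104, and at 141 in lateral members against 88.3. A few cells carried much of these transcripts among members, and the 10 members with most Cd74 held 66.8% of the members' Cd74 UMIs in the medial library and 75.4% in the lateral one. At equal depth a Cd74 UMI was found in 24.9% of medial members against 29.0%, and in 24.2% of lateral members against 22.4%.

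Ranking by each marker gene on its own showed which genes moved with which marker. These 3 rankings share cells with the joint one and with each other, and their values are set side by side as a description. Over all genes compared, 149 of 7430 were higher and 264 lower by Spp1. By Gpnmb 207 of 7406 were higher and 352 lower, and by Lgals3 231 of 7432 were higher and 423 lower. P2ry12 was lower under each, with medial log2 ratios of -1.38 by Spp1, -1.52 by Gpnmb and -1.82 by Lgals3, and Siglech, Igf1, Vim and Fabp5 also kept their call under each. Other genes did not. Tmem119 had log2 ratios of -0.81 and -1.11 by Spp1 and of -0.99 and -0.91 by Lgals3, but of 0.04 and -0.02 by Gpnmb. Lpl and Cd9 were higher by Spp1 and by Lgals3 and in neither class by Gpnmb.

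Class II genes and Itgax, an integrin gene of activated microglia and dendritic cells, split by marker. Itgax was lower in cells ranked high by Gpnmb, with log2 ratios of -0.80 and -1.14, and higher by Spp1, with 1.01 and 1.03, and by Lgals3, with 2.01 and 1.08. Cd74 had -2.41 and -0.58 by Gpnmb and 2.04 and 0.61 by Lgals3. Of the 8 class II genes, 5 were lower and none higher by Gpnmb, and 3 were higher and none lower by Lgals3. By Gpnmb and by Lgals3 each, Cd74 and H2-Aa had the same sign in both libraries, unlike under the joint ranking.

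Lysosomal and proliferation genes also differed by marker. Of 37 lysosomal genes 12 were higher by Gpnmb, 9 by Spp1 and 4 by Lgals3. Of 35 proliferation genes 26 were lower by Lgals3, 21 by Spp1 and 2 by Gpnmb. Of 31 disease-associated genes, 13 were higher and 2 lower by Lgals3, 15 and 2 by Spp1, and 7 and 7 by Gpnmb. None of these differences between rankings was tested.

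**Figure D5:**
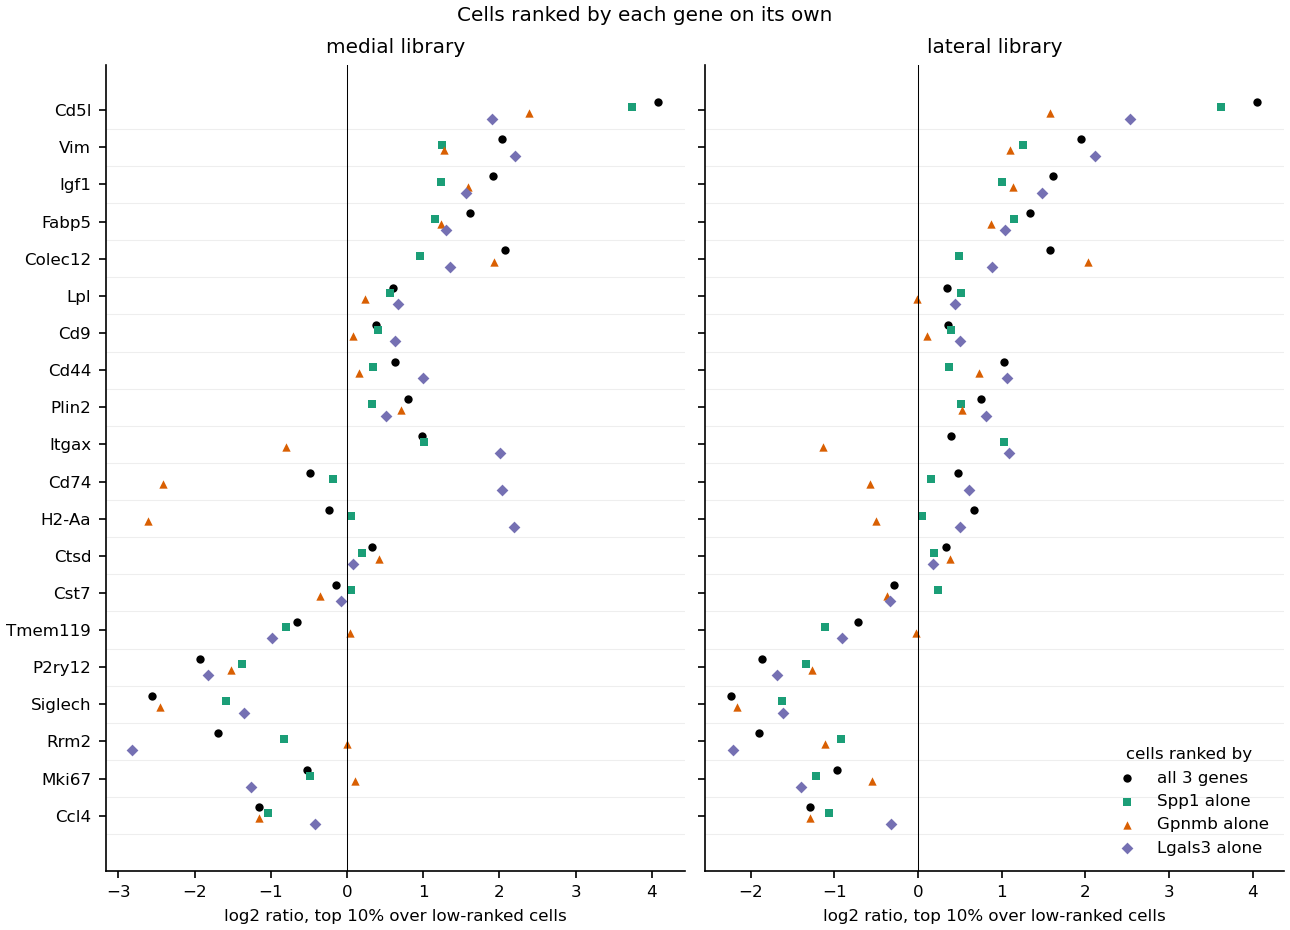
log2 ratio (x) of the top 10% over the lower 50% of cells for 20 genes, with cells ranked by all 3 genes (black) or by Spp1 (green), Gpnmb (orange) or Lgals3 (purple) alone, in each library. P2ry12 and Siglech lie left and Vim and Igf1 right of 0 under each ranking, while Itgax, Cd74 and H2-Aa lie left of 0 by Gpnmb and right of 0 by Lgals3.

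The 2 regions were compared over the members, medial against lateral, with 1 library each and therefore no test. With ranks taken over both libraries pooled, 10.5% of medial cells (223 of 2131, Clopper-Pearson 95% interval 9.20% to 11.8%) and 9.58% of lateral cells (221 of 2308, 8.41% to 10.8%) were in the top 10%. The intervals overlap. When cells were ranked by Spp1 alone the order turned round, with 8.63% of medial and 11.3% of lateral cells. By Lgals3 alone the shares were 9.62% and 10.4%, each inside the interval given above for its library. By Gpnmb alone the shares were 11.7% of medial and 8.41% of lateral cells.

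Several genes differed between medial and lateral members by more than counting error. Itgax stood at 46.8 CPM in medial and 21.5 in lateral members (log2 ratio 1.12, interval 0.66 to 1.60), and at 23.6 in medial and 16.3 in lateral low-ranked cells (0.53). Few members carried much of the Itgax. A UMI was found in 56 of 213 medial and 35 of 231 lateral members, and 10 members held 41.3% of the medial and 52.6% of the lateral UMIs. Ccl4 was higher in medial cells of either kind, with log2 ratios of 0.64 in members and 0.50 in low-ranked cells. The 10 members with most Ccl4 held 39.5% of its UMIs in medial and 37.9% in lateral members. Colec12 stood at 69.2 CPM in medial and 43.0 in lateral members (log2 ratio 0.69), whereas low-ranked cells had 16.4 and 14.3 CPM (0.19, interval -0.13 to 0.51).

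On the lateral side, Sall1 stood at 14.3 CPM in medial and 24.5 in lateral members (log2 ratio -0.78), against 41.5 and 43.1 in low-ranked cells (-0.05). Fcrls, an Fc receptor-like gene of microglia, had log2 ratios of -0.42 in members and -0.24 in low-ranked cells. Class II genes had a median of -0.60 in members, with 6 of 8 intervals below a ratio of 1, and of 0.26 in low-ranked cells, with 5 of 8 above. Proliferation genes were near equal in members, with a median of 0.04. They were lower in medial than lateral low-ranked cells, with a median of -0.34 and 24 of 35 intervals below a ratio of 1. Other lists shifted in low-ranked cells too. Of 29 immediate early genes 25 intervals lay above and 2 below a ratio of 1, and of 31 disease-associated genes 8 above and 19 below. The share over all genes compared is not given here. Whether these region differences depend on the kind of cell was not tested, and animal, dissection and library cannot be told apart from region here.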

How the data were processed

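Single-cell 3' libraries of sorted microglia from the medial and lateral corpus callosum (1 each) were analysed. The deposited values are whole-number UMI counts per gene and barcode, made by the authors with no normalisation recorded; Cell Ranger 2.0.1, STAR and mm10 are named per the submitters' processing notes. The files hold 27998 genes and 737280 barcodes per library, with 28660496 medial and 27955414 lateral UMIs, of which 81.8% and 82.4% lay in the cells kept. The 56 symbols with several gene IDs were summed.

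Cells were filtered (at least 2400 UMIs, 300 genes and at most 10% mitochondrial UMIs), ranked and split as described, in Python 3.11.15 with numpy 2.4.6, scipy 1.17.1 and pandas 2.3.3. Sums of counts were scaled to CPM without Spp1, Gpnmb and Lgals3, since these would lower every other gene in members. Ratios have exact conditional binomial 95% intervals and shares Clopper-Pearson ones; both cover counting error only, and cells are not replicates. No p-value was computed. The ratio and call were run on simulated Poisson sums with known ratios. That simulation holds no spread between cells, so it cannot show how the intervals behave when few cells carry a transcript. No doublet caller was run; leaving out the 2% of cells with most UMIs was an alternative. Per-cell shares used cells thinned to 2400 UMIs. Coordinates came from GENCODE M21 (152 of 153 genes matched), and shared windows are 57-base stretches found in transcripts of another gene.

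The members, the 27 gene lists and the 14 marker lists were chosen with earlier results of these data known. Named genes were the 15 most different in each direction by how far the counting interval stayed from equal levels in the less different library, the extremes and the most abundant gene of each list, and a fixed set of microglial genes; other genes are called members of the lists or were picked after their values were seen. Promoters were matched by symbol for 193 of 250 genes higher and 365 of 490 lower in members. Alternatives changed 1 choice at a time. Some genes of the lists are counted but not reported by name here.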

Additional observations from a re-analysis of the deposited data

Results flagged for a closer look

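The genes named by rule and the rest of the class II list were looked at together. Of these, 5 had opposite signs in the medial and lateral library with both intervals clear of a ratio of 1, members over low-ranked cells. The difference between the libraries was not tested. The share over all 7364 genes compared is not given here, so whether 5 is many or few is left unsaid. Cd74 had log2 ratios of -0.48 (medial) and 0.48 (lateral), H2-Aa of -0.24 and 0.67, H2-Ab1 of -0.38 and 0.51 and H2-Eb1 of -0.61 and 0.60, 4 class II antigen presentation genes. C1qb, a complement subunit gene, had -0.04 and 0.02, a small difference. Outside this set other compared genes had opposite signs too, such as Slpi (1.42 and -0.98) and Fos (-0.60 and 0.17). The class II transcripts sat in few cells, and 10 members held 68.9% of the H2-Aa UMIs of medial and 79.1% of those of lateral members.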

How the results depend on the processing

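No paired analysis was possible because each region has 1 library and no replicate numbers. Counts of 250 genes higher and 490 lower in members moved by over 1.5 times under these settings: centring on the median gene (296 lower), ranking by Spp1 alone (149 higher, 264 lower), a ratio of at least 1.5 (119 and 198) or 2 (44 and 45), no use of the interval (794 lower), and calls from the medial (504 and 1030) or lateral library alone (429 and 1008). Past a pooled cut, where the ranking by all 3 genes put more medial than lateral cells (10.5% and 9.58%), Spp1 alone put 8.63% of medial and 11.3% of lateral cells and Lgals3 alone 9.62% and 10.4%, in the opposite order. Under the other settings 186 to 298 genes were higher and 337 to 559 lower. Without cells holding at least 2 border macrophage UMIs, an alternative chosen after seeing the data, 205 genes were higher, 176 of them among the 250, and 342 lower, 288 of them among the 490; without core cycling cells, also added later, these were 213 and 347. Of 89 called named genes, reversals in the mean log2 ratio were Il1rn (0.0528, Spp1 alone), Tmem119 (0.00766, Gpnmb alone), Txnrd1 (0.20, Lgals3 alone), and Mki67 (0.0312) and Rrm2 (0.23) without core cycling cells, where cells are left out by such genes. Calls of these 89 genes were lost, with the direction kept, for 29 by Spp1, 22 by Gpnmb and 17 by Lgals3 alone, 19 with ranks from thinned cells, 18 with the top 20%, 18 without border macrophage cells, 30 and 51 at a ratio of at least 1.5 and 2, and for 0 to 14 under each other setting. Leaving out cells by the whole proliferation list was not run, since it kept 18 medial cells. At this depth genes under 100 UMIs per library were not compared.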
